A study of Homo sapiens with 12 samples.

Results

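Rego-resistant SNU449-Axl- cells were compared with SNU449 control cells that still expressed Axl and had never been adapted to the drug. These populations differ both in Axl and in Rego resistance, and their 6 libraries were taken from the 12 libraries of the series by genotype and treatment. SNU449 is a hepatocellular carcinoma (HCC) cell line of mesenchymal-like appearance, and SNU449-Axl- is its derivative in which Axl was inactivated by CRISPR/Cas9 editing. The control (naïve) cells were wild type for Axl. The Axl-deficient cells had been exposed long-term to rising concentrations of Regorafenib (Rego), a multikinase inhibitor, until they grew at 2 times the IC50, and Rego was given anew after each passage. Both were kept in RPMI with fetal bovine serum. Each group consisted of 3 libraries, described as technical triplicates of a single population, and whether the SNU449-Axl- cells derive from a single clone is not given in the sources used here. Axl loss, the drug in the medium, adaptation to it and chance differences between the populations therefore cannot be told apart, and p-values measure only the spread between libraries.

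Axl is a receptor tyrosine kinase of the TAM family, which also includes Tyro3 and MerTK, and is activated by its ligand Gas6. In liver cancer cells Axl is known for its link to epithelial to mesenchymal transition (EMT), during which cells lose junctions and keratins and gain motility, and to tolerance of kinase inhibitors. Rego inhibits VEGF, FGF and PDGF receptors as well as the kinases KIT and RET.

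RNA had been sequenced from the 3' ends of transcripts, and 14241 genes were tested. The level of a gene in a library is a rounded whole number, 2 raised to a variance-stabilized expression level from which the effect of the preparation date had been removed, and the lowest value of the table was 42. Differences between groups are given as log2 differences of these values, resistant Axl-deficient minus control, with their standard error (SE). They understate changes of weak genes: between mean normalized counts of 16 and 64 the log2 value rose by 0.336 for each unit of log2 count, against 0.992 between 1024 and 4096. Read counts of single libraries were not analysed here, so that the depth of each library is unknown. The authors' mean normalized counts of the genes summed to 4.66e+06. The values of libraries with the same replicate number were tied, which is read here as the result of removing the preparation effect. The preparation date of each library is not given in the sources used. For each number, the deviation of its libraries from their group means was averaged over both groups. The size of this average had a median over genes of at most 0.000902 on the log2 scale, while a library deviated from its group by a median of 0.0701. A library that lies high in the control group thus has a counterpart that lies low in the resistant group, and the replicate number was kept as a block in the limma fit.

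AXL (ENSG00000167601.12, chr19:41219223-41261766 of GRCh38, plus strand) was examined first. It had values of 783, 932 and 769 in the control libraries and of 102, 86 and 104 in the resistant Axl-deficient libraries, replicates 1 to 3 in each case. All libraries of the edited cells thus lay far below those of the control cells, with a log2 difference of -3.09 (SE 0.16, Benjamini-Hochberg adjusted p = 3e-06 in limma). The other TAM members did not pass the test. TYRO3 differed by -0.05 (SE 0.13) and MERTK by 0.06 (SE 0.11), and their libraries overlapped between the groups. PROS1, the gene of the TAM ligand protein S, differed by 0.29 (SE 0.17). For GAS6 the values were 147, 145 and 116 in control against 142, 144 and 179 in resistant libraries, a difference of 0.19 (SE 0.16, adjusted p = 0.56). MERTK, with an authors' mean normalized count of 8, lies where the scale compresses differences.

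The hepatocellular origin is only weakly visible in these cells. Of 32 hepatocyte genes 18 were measured, and ALB and HNF4A were not listed in the table, nor were the epithelial genes CDH1 and EPCAM. AFP, the fetal liver protein, was near the lowest values with 62, 61 and 64 in control and 80, 81 and 78 in resistant libraries. VIM, the mesenchymal intermediate filament, was among the strongest genes in both groups, with 17715, 21705 and 16169 against 17255, 14083 and 18906. Markers of other cell types were mostly not listed, and of 12 leukocyte and endothelial genes 3 were measured, namely CD14, CD68 and HLA-DRA.

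Of the genes tested 928 (6.52%) were differentially expressed at a Benjamini-Hochberg adjusted p under 0.05 in limma. Of these, 590 (4.14%) rose and 338 (2.37%) fell in the resistant Axl-deficient cells. The difference was at least 1 on the log2 scale for 163 of the genes that rose and 78 that fell, and at least 3 for 4 genes in each direction. Non-overlapping libraries alone were common, with 5702 genes (40.0%), while all genes called except SERPINE2 met this criterion. The median difference over all genes was 0.01. Protein-coding genes made up 860 of the calls and long non-coding RNAs 48. Without the replicate block 3542 genes (24.9%) were called, 1973 (13.9%) higher and 1569 lower. With the libraries centred on the spike-in RNAs, 2822 genes (19.8%) were called, 2686 (18.9%) higher and 136 (0.955%) lower. All 27 spike-in RNAs were lower in the resistant libraries, so that this centring adds 0.27 to each difference and turns the direction of genes with small negative differences. Mean spike-in levels were at most 6.99 in resistant and at least 7.08 in control libraries on the log2 scale. Differences at such levels are compressed, so that the same shift may not suit strong genes. From bulk RNA, fewer cells of a type and less RNA per cell cannot be told apart. Leaving out both libraries of replicate 1, 2 or 3 left 1 residual degree of freedom and 0, 4 and 0 calls.

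**Figure D1:**
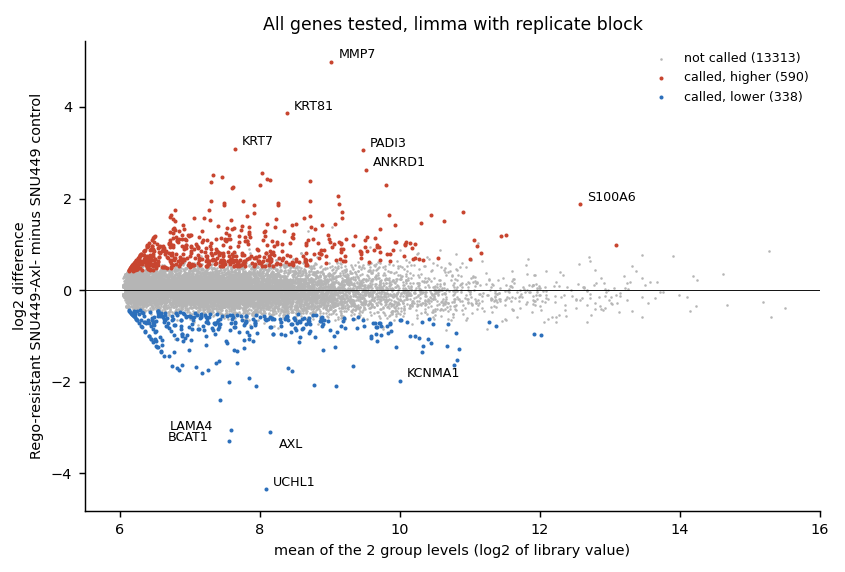
Mean level of the 2 groups (log2 of library value, x axis) against the log2 difference between Rego-resistant SNU449-Axl- and SNU449 control libraries (y axis) for 14241 genes, 1 point per gene. Red points are the 590 genes called higher and blue points the 338 called lower. MMP7 lies at the top with 4.98 and UCHL1 at the bottom with -4.35.

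The largest rise was found for MMP7 (ENSG00000137673.9, chr11:102520508-102530750, minus strand), which encodes matrilysin, a secreted protease of epithelial tumors. It had values of 110, 80 and 89 in control libraries and of 2435, 3359 and 3013 in resistant Axl-deficient libraries. This is a log2 difference of 4.98 (SE 0.19, Benjamini-Hochberg adjusted p = 4.2e-07 in limma) or 31.6-fold on the scale of the values. At the other end stood UCHL1 (ENSG00000154277.13, chr4:41256413-41268455, plus strand), a ubiquitin hydrolase typical of neurons, with 1136, 1205 and 1344 in control and 65, 61 and 55 in resistant libraries. Its log2 difference was -4.35 (SE 0.15, adjusted p = 3.3e-07), 20.4-fold lower on the same scale. In neither gene did the libraries of the groups come near each other.

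The 250 bases before the transcription start of genes with the largest changes are shown because the changes of these genes dominate the comparison. RefSeq held windows for 7 of the 10 genes examined, those with the 5 largest changes in each direction, and the genes with a single start are given here (GRCh38.p14, 5' to 3' on the strand of the gene). Capitals mark matches to the AP-1 motif TGANTCA or to the TATA box TATAAA, searched on both strands.
MMP7, chr11:102530748-102530997, minus strand: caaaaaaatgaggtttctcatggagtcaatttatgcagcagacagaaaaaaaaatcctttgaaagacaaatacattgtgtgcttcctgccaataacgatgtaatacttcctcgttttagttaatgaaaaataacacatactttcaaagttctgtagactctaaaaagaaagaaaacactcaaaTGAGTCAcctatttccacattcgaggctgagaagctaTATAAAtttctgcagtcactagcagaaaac
ANKRD1, chr10:90921088-90921337, minus strand: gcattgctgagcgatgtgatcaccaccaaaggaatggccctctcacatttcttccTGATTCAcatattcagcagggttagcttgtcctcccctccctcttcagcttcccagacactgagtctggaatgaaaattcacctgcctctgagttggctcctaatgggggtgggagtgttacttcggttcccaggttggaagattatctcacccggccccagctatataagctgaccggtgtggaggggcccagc
UCHL1, chr4:41256678-41256927, plus strand: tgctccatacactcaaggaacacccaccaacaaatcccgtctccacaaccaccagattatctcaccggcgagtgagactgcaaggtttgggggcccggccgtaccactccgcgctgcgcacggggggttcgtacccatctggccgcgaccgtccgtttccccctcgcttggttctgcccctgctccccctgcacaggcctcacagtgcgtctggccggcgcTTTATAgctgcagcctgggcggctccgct
LAMA4, chr6:112254568-112254817, minus strand: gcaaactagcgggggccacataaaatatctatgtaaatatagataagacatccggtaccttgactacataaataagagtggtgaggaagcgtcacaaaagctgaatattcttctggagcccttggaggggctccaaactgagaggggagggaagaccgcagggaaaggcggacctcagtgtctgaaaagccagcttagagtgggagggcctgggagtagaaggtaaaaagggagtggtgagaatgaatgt
The AP-1 letters begin 67 bases before the start in MMP7 and 195 bases before it in ANKRD1, and were found in 6.6% of all 27305 promoter windows of this length. TATA letters begin 30 bases before the start of MMP7 and, read on the opposite strand, 29 bases before that of UCHL1, and 11.1% of all windows hold them. The LAMA4 window holds neither.

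Keratins followed MMP7. KRT81, a hair keratin, had values of 90, 104 and 72 in control and 1242, 1076 and 1562 in resistant libraries, a log2 difference of 3.87 (SE 0.19). KRT7, a keratin of simple and ductal epithelia, rose from 74, 80 and 54 to 536, 497 and 741 (3.09, SE 0.20). PADI3, an enzyme that converts arginine to citrulline in keratin-associated proteins, had 278, 243 and 222 in control and 1813, 2075 and 2271 in resistant libraries (3.05, SE 0.17). The adjusted p of these 3 genes in limma was 2.7e-05 or lower, and within each group the libraries were much closer than the groups were. KRT81, like AKR1B10, MT1F and HLA-B named further on, has close paralogs, and how reads shared with them were counted was not tested.

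ANKRD1, a nuclear cofactor induced by YAP, showed 403, 295 and 213 in control against 1326, 1811 and 2507 in resistant libraries (2.63, SE 0.28). VCAN, the matrix proteoglycan versican, varied most, with 659, 451 and 216 against 1195, 1748 and 3652 (2.30, SE 0.44, adjusted p = 0.013). The heparan sulfate proteoglycan SDC2 rose by 2.47 (SE 0.18), prostaglandin E synthase PTGES by 2.43 (SE 0.30) and the protease PAPPA, which cleaves IGF-binding proteins, by 2.30 (SE 0.15). For S100A4, a calcium-binding protein often used as a mesenchymal marker, 92, 79 and 101 stood against 421, 491 and 386 (2.25, SE 0.16). The remaining genes among the 15 largest rises were MTUS1 (2.56), which encodes a microtubule-associated protein, the fibrinogen gene FGB (2.51), the secreted ligand WNT7B (2.39), the aldo-keto reductase AKR1B10 (2.38) and the annexin ANXA3 (2.36).

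The genes that fell most included metabolic, matrix and adhesion genes. BCAT1, the cytosolic aminotransferase of branched-chain amino acids, had 673, 580 and 529 in control and 53, 61 and 67 in resistant libraries (-3.30, SE 0.16, Benjamini-Hochberg adjusted p = 2.5e-06 in limma). LAMA4, a laminin chain of vascular basement membranes, fell from 515, 548 and 603 to 72, 68 and 61 (-3.05, SE 0.14). These resistant libraries lay close to the lowest values of the table, so that the differences are compressed. VCAM1, an adhesion molecule that binds leukocyte integrins, was uneven. It had 673, 656 and 1655 in control and 285, 292 and 116 in resistant libraries (-2.08, SE 0.41, adjusted p = 0.014).

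LNCAROD, a long non-coding RNA located near DKK1, fell by 2.39 on the log2 scale (SE 0.16), with 384, 349 and 457 against 77, 85 and 65. DKK1 itself, a secreted Wnt antagonist, had 2625, 2098 and 5390 in control and 1168, 1460 and 569 in resistant libraries (-1.65, SE 0.39). Another Wnt antagonist, SFRP1, decreased from 369, 503 and 476 to 143, 105 and 111 (-1.91, SE 0.18). All 3 genes were lower in each resistant library than in any control library. For LNCAROD and SFRP1 this was a condition for counting among the 15 largest falls. Of all genes 40.0% did not overlap, in either direction. The potassium channel gene KCNMA1 (-1.98), the calcium channel subunit CACNA2D3 (-1.77), the zinc finger gene CXXC5 (-2.09), the apolipoprotein APOL1 (-2.09), TMEM158 (-2.01), the carboxypeptidase CPA4 (-1.81), the HMG-box gene TOX2 (-1.75) and NHS (-1.74) completed the 15 largest falls.

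**Figure D2:**
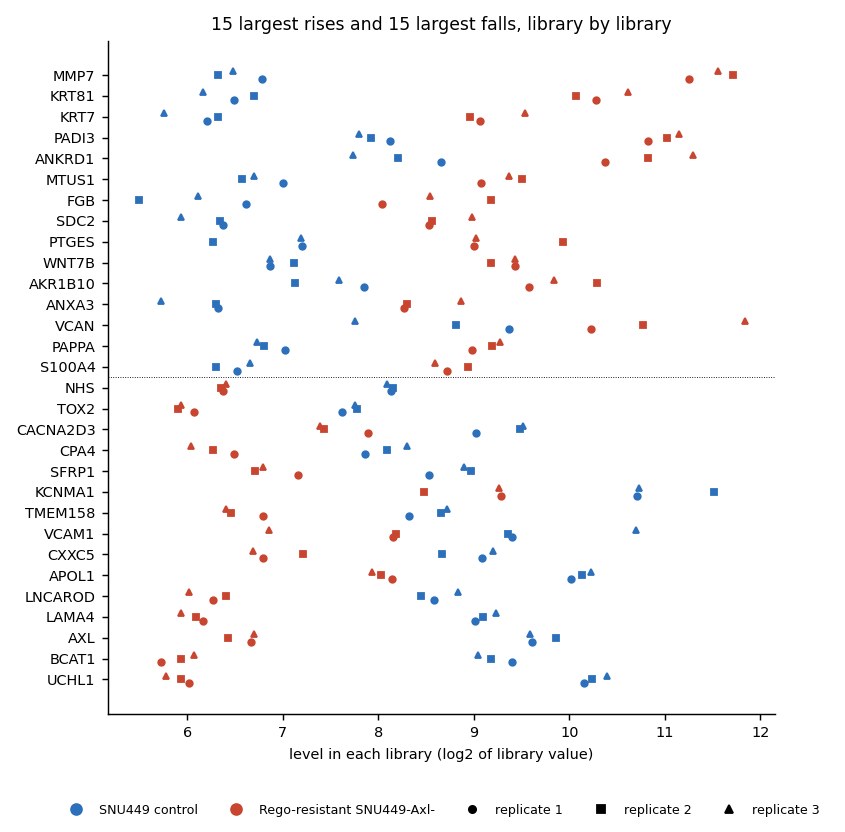
Level in each library (log2 of library value, x axis) of the 15 genes with the largest rise (upper part) and the 15 with the largest fall (lower part). Blue symbols are SNU449 control and red symbols Rego-resistant SNU449-Axl- libraries, with circles, squares and triangles for replicates 1, 2 and 3. The groups do not overlap for any of these genes, and VCAN and VCAM1 show the widest scatter, with mirrored deviations of replicate 3.

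To place these differences, the table over all 12 libraries was used, which also holds SNU449-Axl- control and Rego-resistant SNU449 cells. Its values were made separately and reach down to 12, so that differences of weak genes are larger than above. The contrasts share libraries with each other and with the comparison described here, and are therefore given side by side only. Adjusted p-values are Benjamini-Hochberg adjusted values of limma in 1 fit over the 4 groups. The genes given as examples were picked after their values were seen.

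One pattern was a level already reached without Rego. UCHL1 had a mean log2 level of 10.19 in SNU449 control, 4.54 in the Axl-deficient control and 4.41 in the resistant Axl-deficient cells. The difference between the control populations was -5.66 (adjusted p = 1.4e-12), while that between resistant and control Axl-deficient cells was -0.12 (adjusted p = 0.8). Rego-resistant SNU449 cells, which express Axl, also had 4.41. BCAT1 showed levels of 9.09, 4.41, 5.05 and 4.41 in SNU449 control, SNU449-Axl- control, Rego-resistant SNU449 and Rego-resistant SNU449-Axl- cells. In the same order of populations, KRT81 had 5.27, 10.06, 10.07 and 10.25, and WNT7B 6.06, 8.95, 9.52 and 9.24. For these genes SNU449 control cells thus stood apart from the other 3 populations. AXL itself had 9.62, 5.30, 10.09 and 5.53 and followed the genotype.

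Another pattern was a difference that appeared with Rego. MMP7 had 5.41 in SNU449 control and 5.67 in SNU449-Axl- control cells, a difference of 0.26 (adjusted p = 0.63), against 9.06 in Rego-resistant SNU449 and 11.43 in Rego-resistant SNU449-Axl- cells. The difference between the resistant populations was 2.37 (adjusted p = 2.9e-05). LAMA4 was at 8.99 and 8.34 in the control populations and at 4.89 and 4.64 in the resistant ones, and TMEM158 at 8.33 and 8.35 against 6.26 and 5.46. In 3 further genes, Rego-resistant SNU449-Axl- cells stood apart from the other populations. AKR1B10 had 6.89, 6.37, 6.96 and 9.80, the desmosomal gene DSP 5.21, 4.73, 4.82 and 7.78, and SFRP1 8.62, 8.65, 8.72 and 5.96, in SNU449 control, SNU449-Axl- control, Rego-resistant SNU449 and Rego-resistant SNU449-Axl- cells. Between the resistant populations these genes differed by 2.84, 2.96 and -2.76, with adjusted p of 3.6e-06, 1.7e-06 and 6.1e-05.

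A further pattern was a lower level in the Axl-deficient control than in the resistant Axl-deficient cells. VCAM1 had 9.70 in SNU449 control, 5.38 in the Axl-deficient control and 7.19 in the resistant Axl-deficient cells, and thus differed by -4.32 between the control populations and by 1.80 (adjusted p = 0.015) between resistant and control Axl-deficient cells. CXXC5 went from 8.82 to 4.93 and 5.99, and APOL1 from 10.06 to 6.90 and 7.61, with differences of 1.06 (adjusted p = 0.014) and 0.71 (adjusted p = 0.049) in the step with Rego. Rego-resistant SNU449 cells, which express Axl, had 5.60 for VCAM1, 5.17 for CXXC5 and 6.02 for APOL1, that is differences of -4.10, -3.66 and -4.04 from SNU449 control cells.

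**Figure D3:**
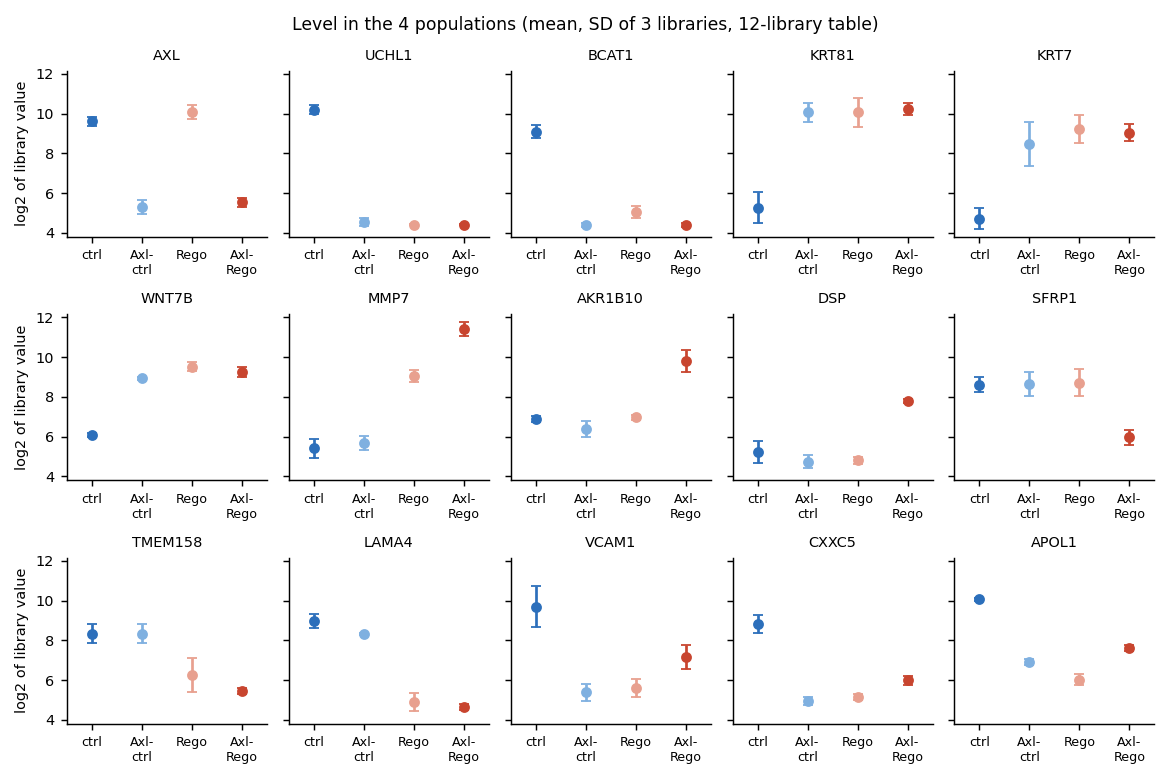
Mean log2 level of 15 genes in SNU449 control (ctrl), SNU449-Axl- control (Axl- ctrl), Rego-resistant SNU449 (Rego) and Rego-resistant SNU449-Axl- cells (Axl- Rego), from the table over 12 libraries. Error bars are SD of 3 libraries. UCHL1, BCAT1, KRT81, KRT7 and WNT7B separate SNU449 control cells from the rest, while AKR1B10, DSP and SFRP1 separate Rego-resistant SNU449-Axl- cells.

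Of 30 epithelial genes 12 were measured and 8 were called, all higher (66.7%, against 6.52% of all genes called and 4.14% called higher), with a median difference of 0.99 against 0.01 over all genes. The other 4 did not pass the test. Besides the keratins named above, the called genes were KRT80 (1.27), KRT8 (1.15) and the junctional genes CLDN1 (1.08), JUP (0.82) and DSP (1.76). LSR (0.89), a component of tricellular junctions, was called as well. DSP, which links desmosomes to keratin filaments, had 90, 92 and 72 in control and 266, 260 and 334 in resistant libraries (SE 0.16, Benjamini-Hochberg adjusted p = 0.00023 in limma). OCLN, a tight junction gene, differed by -0.19 and was not called. The remaining 18 genes of the list were not listed in the table. KRT7, KRT81 and DSP had control values close to the lowest of the table, where a fall could hardly show. The direction of such calls is thus partly set in advance, and whether these genes are listed only through their resistant libraries was not tested. Of 19 mesenchymal genes measured, 2 rose and 2 fell (21.1% called), with a median of -0.10. Without the block 3 were called higher and 5 lower, and with spike-in centring 5 higher and 1 lower. S100A4 and NT5E (0.82), the surface enzyme CD73, were higher, and WNT5A, a Wnt ligand of motile cells, was lower with 649, 506 and 678 against 175, 224 and 167 (-1.70, SE 0.18), as was ZEB2 (-0.55). VIM (-0.15, SE 0.23), ZEB1 (0.24, SE 0.14) and N-cadherin CDH2 (-0.56, SE 0.17, adjusted p = 0.079) did not pass the test.

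Matrix and adhesion genes changed in both directions. Among 22 laminins and integrins 5 rose and 3 fell (36.4% called, against 6.52% of all genes), with a median of 0.05. ITGB4, the integrin subunit of hemidesmosomes, had 227, 145 and 142 in control and 333, 520 and 533 in resistant libraries (1.43, SE 0.24), and the epithelial laminin chain LAMA5 differed by 1.22 (SE 0.20). ITGA6 (0.75), which pairs with ITGB4, ITGB5 (0.86) and ITGB2 (1.01) were also higher. In contrast, the fibronectin receptor subunit ITGA5 (-1.13) and the vitronectin receptor subunit ITGB3 (-1.14) fell together with LAMA4. Of 14 collagens 4 rose, among them COL6A1 (1.23) and COL18A1 (1.05), and COL13A1 fell (-1.30), or 35.7% called. Among 23 matrix proteases and their inhibitors MMP7, SERPINE2 (1.20) and the urokinase gene PLAU (0.75) rose, and ADAM19 fell (-0.95), or 17.4% called. The call of ADAM19 was lost in the fit over 12 libraries (adjusted p = 0.0502). SERPINE2, a serine protease inhibitor, had 1482, 1653 and 2919 against 5744, 5150 and 2916, so that replicate 3 overlapped between the groups, and its adjusted p was 0.0499. Its call was lost without the variance trend and with a minimum mean normalized count of 30.

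Of the 18 hepatocyte genes measured 6 were called, all higher (33.3%, against 6.52% of all genes called and 4.14% called higher), with a median difference of 0.31. The other 12, AFP among them, did not pass the test, and 2 of the 18 were below 0. FGB had 98, 45 and 69 in control and 263, 579 and 373 in resistant libraries (2.51, SE 0.31, adjusted p = 0.0013), and the other fibrinogen genes FGG and FGA differed by 1.75 and 0.55. The retinol carrier RBP4 rose by 1.60 and the plasma protein AMBP by 1.37. Values of FGB, RBP4 and FGG in control libraries were near the lowest of the table, where a fall could hardly show. Not listed were 14 of the 32 genes, ALB among them, so that the direction of the calls is partly set in advance.

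Of 31 drug transport and metabolism genes 7 rose and 1 fell (25.8% called, against 6.52% of all genes called and 4.14% called higher), with a median of 0.22. Not listed were 11 of the 42 genes. Whether members are listed only through their resistant libraries was not tested. ABCB1, the efflux pump P-glycoprotein, had 116, 127 and 77 in control and 246, 225 and 373 in resistant libraries (1.40, SE 0.23, adjusted p = 0.0062). The vitamin D hydroxylase CYP24A1 (1.43), the aldehyde dehydrogenase ALDH1A3 (1.26), the drug oxidase CYP3A5 (1.21), and the transporters ABCC3 (1.05), ABCG2 (0.59) and SLCO1B3 (0.58) were higher as well, whereas the transferase GSTO1 was lower (-0.69). In the 12-library table ABCB1 was at 5.69 in SNU449 control, 7.28 in the Axl-deficient control, 6.91 in Rego-resistant SNU449 and 7.69 in the resistant Axl-deficient cells. The difference between resistant and control SNU449 cells was 1.22 (adjusted p = 0.017). Between the control populations ABCB1 differed by 1.595 (adjusted p = 0.0031 in limma). Between resistant and control Axl-deficient cells it differed by 0.40 (adjusted p = 0.52). Among 24 targets of NRF2, the factor that answers oxidative stress, AKR1B10, HMOX1 (1.15) and ABCC3 rose and none fell. This is 12.5% of the list, against 6.52% of all genes called and 4.14% called higher. Other targets were not called, among them NQO1 (-0.54) and TXNRD1 (-0.66), and the median of the list was 0.06.

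The receptors of the ErbB family, whose signaling the study examined in resistant cells, did not pass the test here. EGFR had 696, 722 and 536 in control and 806, 777 and 1047 in resistant libraries (0.43, SE 0.19, Benjamini-Hochberg adjusted p = 0.23 in limma). For all 4 receptors the libraries of the groups did not overlap, as in 40.0% of all genes. ERBB3 differed by 0.38 (SE 0.12, adjusted p = 0.11), ERBB4 by 0.32 (SE 0.11, adjusted p = 0.13) and ERBB2 by -0.06 (SE 0.13), which becomes 0.21 with spike-in centring. Without the replicate block 2 of the 4 receptors were called higher, and with spike-in centring 3. ERBB4 had an authors' mean normalized count of 3, where differences are strongly compressed. Between counts of 1 and 4 the log2 value rose by only 0.095 for each unit of log2 count. In the 12-library table its level was 4.48 in SNU449 control, 4.91 in SNU449-Axl- control, 5.60 in Rego-resistant SNU449 and 5.01 in Rego-resistant SNU449-Axl- cells. Of 6 ErbB ligands 1 was called (16.7%, against 6.52% of all genes). This was TGFA, which fell from 93, 95 and 80 to 58, 57 and 67 (-0.56, SE 0.13, adjusted p = 0.029), a call that was lost with spike-in centring.

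Among 8 measured kinases inhibited by Rego, FGFR1 alone passed the test (12.5% called, against 6.52% of all genes). It had 583, 496 and 733 in control and 1635, 1921 and 1299 in resistant libraries (1.42, SE 0.21, adjusted p = 0.0031). BRAF (0.10, SE 0.13) had overlapping libraries. Of 4 FGF ligands FGF12 rose (1.10), or 25% called. FGF2, which encodes bFGF, had 708, 724 and 679 against 567, 555 and 592 (-0.30, SE 0.15, adjusted p = 0.29). FGFR1 was at 9.10 in SNU449 control, 10.18 in SNU449-Axl- control, 8.92 in Rego-resistant SNU449 and 10.56 in Rego-resistant SNU449-Axl- cells. Of 20 output and feedback genes of the MAPK pathway only the feedback inhibitor SPRY2 was called (0.66, SE 0.15), a share of 5.00% against 6.52% of all genes. Without the block 2 genes of this list were called higher and 2 lower, and with spike-in centring 7 higher and none lower. In the insulin-like growth factor axis 2 of 11 genes were called (18.2%, against 6.52% of all genes). The adaptor IRS2, with 845, 789 and 732 against 2305, 2468 and 2661, and the binding protein IGFBP3 rose by 1.65 each.

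In the Wnt pathway 3 of 26 genes rose and 3 fell (23.1% called, against 6.52% of all genes), and with spike-in centring 11 were called higher and 3 lower. Besides WNT7B, the repressor NKD2 (0.55) and TCF7 (0.49) were higher, and SFRP1, WNT5A and DKK1 were lower. Among 29 genes of TGF-beta and BMP signaling 5 rose, including the activin subunit INHBB (1.96) and GDF15 (1.58), and 4 fell, including the activin antagonist FST, with 199, 264 and 185 against 114, 86 and 123, and the signal transducer SMAD3 (-0.74). This is 31.0% of the list, against 6.52% of all genes, and with spike-in centring 13 were called higher and 1 lower. INHBB had 79, 95 and 69 in control and 316, 265 and 362 in resistant libraries. Of 25 targets of YAP and TEAD 5 rose and AXL, which is on this list, fell (24% called, against 6.52% of all genes). Without the block 6 were called higher and 3 lower, and with spike-in centring 8 higher and 1 lower. ANKRD1, IGFBP3, CCN1 (0.70) and NUAK2 (0.69) were higher, and the median of the list was -0.02. No member of the 13 Notch pathway genes or the 15 BCL2 family genes was called by limma with the block, while 2 in each list were called without it.

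Of 25 cytokines, chemokines and adhesion molecules 8 were called (32.0%, against 6.52% of all genes). Of these 7 rose and VCAM1 fell, while 4.14% of all genes were called higher, and the median was 0.28. With spike-in centring 13 were called higher and 1 lower. IL18 had 185, 158 and 174 in control and 388, 455 and 414 in resistant libraries (1.28, SE 0.15), and the neutrophil chemokine CXCL5 differed by 1.64 (SE 0.22). BIRC3 (1.12) and SOD2 (0.99), targets of NF-kB, were also higher. CXCL5 had 49, 55 and 80 in control libraries, near the lowest values of the table, where a fall could hardly show. Not listed were 9 of the 34 genes. Whether members are listed only through their resistant libraries was not tested. Among 38 interferon-stimulated genes 8 were called (21.1%, against 6.52% of all genes), with a median of 0.09. Here 3 rose, namely BST2 (0.97), IFI44L (0.79) and OAS1 (0.76), and 5 fell, including APOL1, APOL2 (-1.09) and GBP1 (-0.74). With spike-in centring the same list had 12 higher and 2 lower. Of 25 antigen presentation genes the immunoproteasome subunits PSMB8 (-0.87) and PSMB9 (-0.65), HLA-B (-0.68) and HLA-DRA (-0.72) fell. This is 16% of the list, against 6.52% of all genes called and 2.37% called lower. PSMB8 had 489, 481 and 518 against 274, 279 and 259 (SE 0.14, adjusted p = 0.0053). With spike-in centring 5 genes of this list were called higher and 2 lower.

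The S100 family of calcium-binding proteins had 5 of 9 measured members called (55.6%, against 6.52% of all genes), 4 of them higher (4.14% of all genes). S100A6 had 3274, 3304 and 2947 in control and 11248, 11144 and 12498 in resistant libraries (1.87, SE 0.19, adjusted p = 0.00037), a 3.66-fold difference at a level where the scale follows counts closely. S100A3 (0.99) and S100P (0.74) rose along with S100A4, and S100A16 fell (-0.90). S100A3 had 64, 85 and 78 in control libraries, near the lowest values of the table, where a fall could hardly show. Not listed were 7 of the 16 members. Whether members are listed only through their resistant libraries was not tested. Of 4 metallothioneins MT1F rose (0.64), or 25% called.

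Of 28 glycolysis and hypoxia genes measured, 8 fell (28.6%, against 2.37% of all genes called lower) and none rose, with a median difference of -0.45 against 0.01 over all genes. The other 20 did not pass the test, and 6 of the 28 were above 0. LDHA, lactate dehydrogenase, had 4510, 5932 and 7329 in control and 3791, 2882 and 2333 in resistant libraries (-0.98, SE 0.25, Benjamini-Hochberg adjusted p = 0.045 in limma). BNIP3, a mitophagy receptor induced by hypoxia, fell from 1366, 1396 and 1816 to 710, 695 and 534 (-1.24, SE 0.19). The glycolytic enzymes TPI1, with 1391, 1738 and 1988 against 1022, 819 and 716, PKM (-0.79) and HK1 (-0.66), the kinases PDK1 (-0.98) and PFKFB4 (-0.62) and the collagen hydroxylase P4HA1 (-0.72) were also lower. Without the block 17 genes of the list were called lower and 1 higher, and with spike-in centring 3 lower and 1 higher. Cell cycle genes showed a smaller difference, with a median of -0.28 and 40 of 46 genes below 0. Of the 46 genes 4 were called, all lower (8.70%, against 6.52% of all genes called and 2.37% called lower). These were PCNA (-0.90, a call lost in the fit over 12 libraries with adjusted p = 0.0549), AURKA (-0.79), CCNB2 (-0.66) and BUB1 (-0.56), and no gene of the list was called lower with spike-in centring, where 1 was called higher, against 16 lower and 1 higher without the block. MKI67 had overlapping libraries (-0.44, SE 0.23).

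Of 31 genes of cholesterol and fatty acid synthesis 1 rose and 2 fell (9.68% called, against 6.52% of all genes). HMGCS1, an early enzyme of the sterol pathway, was higher (0.71), and ACLY, which provides cytosolic acetyl-CoA, fell from 1921, 1972 and 1990 to 958, 933 and 925 (-1.06, SE 0.16). In the list of ATF4 and unfolded protein response genes DDIT3 (0.67) and VLDLR (0.63) were higher and STC2 was lower (-1.34) among 29 measured (10.3% called). With spike-in centring 11 genes of this list were called higher and 1 lower, and DDIT3 lost its call in the fit over 12 libraries (adjusted p = 0.0697).

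**Figure D4:**
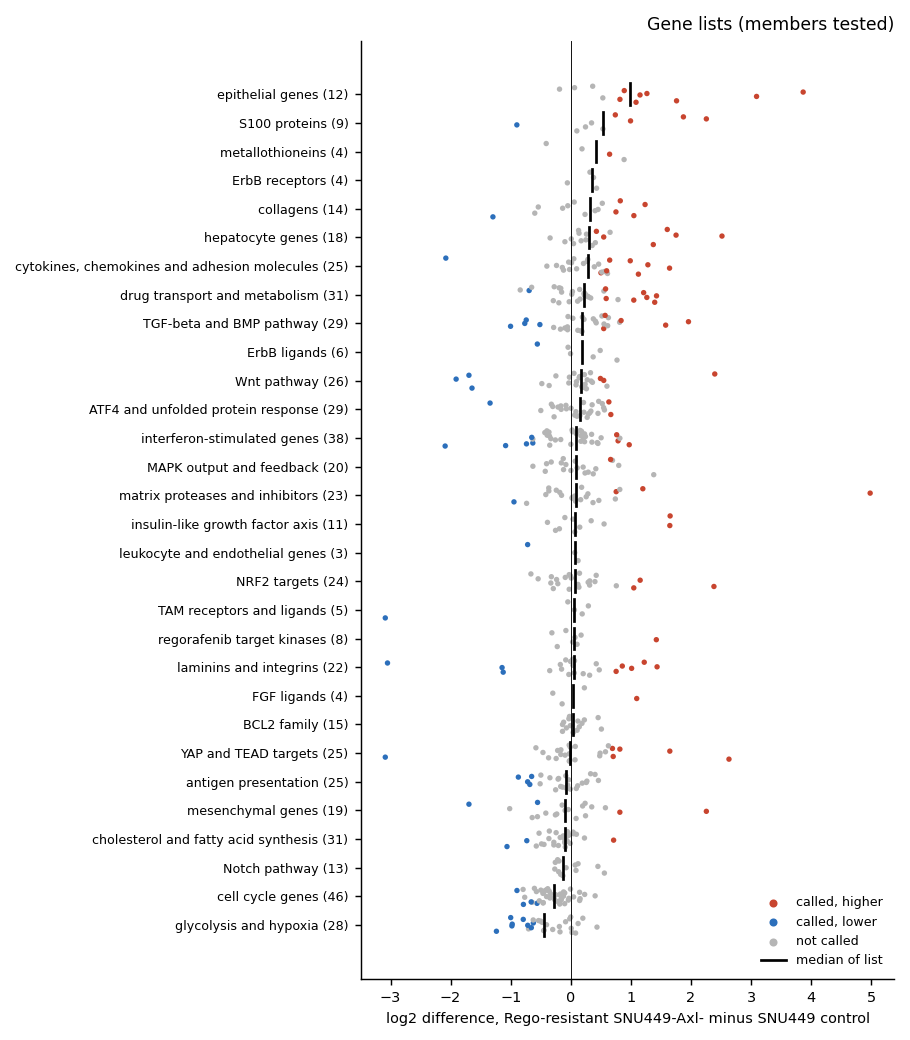
Log2 difference between Rego-resistant SNU449-Axl- and SNU449 control libraries (x axis) of the measured members of 30 gene lists, 1 point per gene, ordered by the median of the list (black bars). Red points were called higher, blue points lower and grey points were not called. Epithelial genes have the highest median (0.99) and glycolysis and hypoxia genes the lowest (-0.45).

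Differences were also examined along the chromosomes, in runs of 41 neighbouring tested genes. The middle 50% of all 13283 runs had medians between -0.04 and 0.05. The highest run, with a median of 0.53, lay at the start of chromosome 5 (chr5:196868-14653329), where 39 of 41 genes were above 0 and 17 were called, all higher. The largest called differences there were those of the ion cotransporter SLC12A7 (1.21), the ubiquitin ligase MARCHF6 (1.12) and CMBL (0.98), a hydrolase. CMBL had 198, 195 and 194 in control and 382, 387 and 390 in resistant libraries. Joined runs with medians of at least 0.25 reached up to position 55233608 and held 136 genes, of which 46 (33.8%) were called higher, against 4.14% of all genes, and 1 lower. In the 12-library table the median of these genes was 0.54 between the control populations, 0.05 between resistant and control Axl-deficient cells and 0.40 between resistant and control SNU449 cells. The limit of 0.25 was chosen after the values were seen.

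The lowest run, with a median of -0.34, lay on chromosome 16 (chr16:67438014-70251940), where 4 of 41 genes were above 0. It included the hyaluronan synthase HAS3 (-0.91) and the ribosome biogenesis genes UTP4 (-0.79) and NOB1 (-0.68), the 3 genes called there. Further stretches on chromosomes 8, 15 and 17 and a second on chromosome 16 also reached the limit and are not described. On chromosome 19, stretches of 58 genes (chr19:281040-2051244) and of 179 genes (chr19:23927788-41353922) had medians of 0.29 and 0.25. In these, 15 (25.9%) and 21 genes (11.7%) were called higher, against 4.14% of all genes. The longer stretch includes AXL, which was called lower. On chromosome 20 a stretch of 96 genes (chr20:31664452-44311202) had a median of -0.25, with 9 genes lower and none higher. Spike-in centring would add 0.27 to each of these medians and thus turn those of about -0.25, while the contrast between stretches stays.

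**Figure D5:**
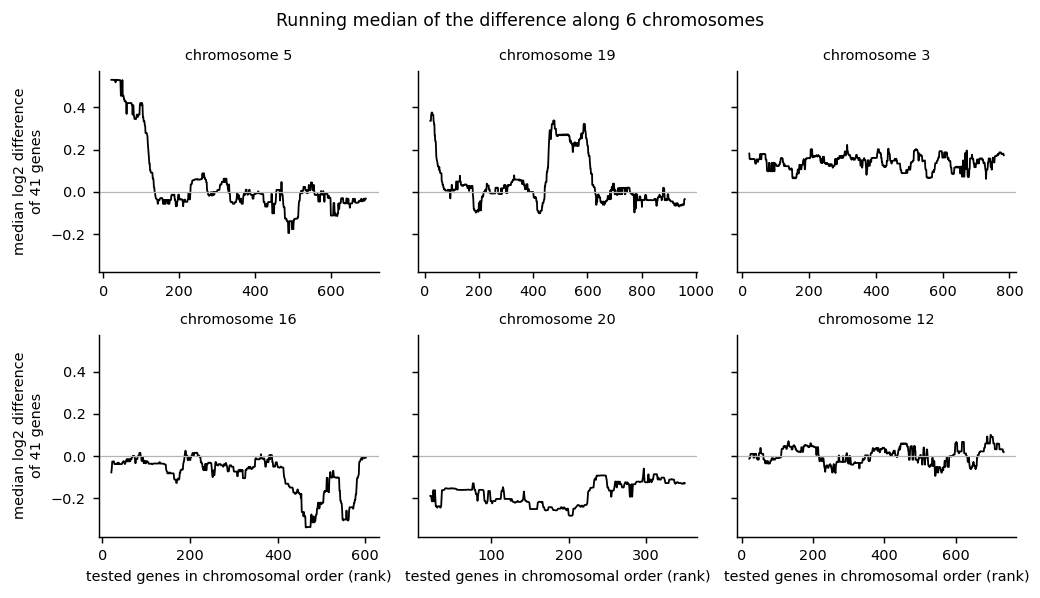
Running median of the log2 difference over 41 neighbouring tested genes (y axis) along 6 chromosomes, with genes in chromosomal order (x axis, rank). The line rises to 0.53 at the start of chromosome 5 and falls to -0.34 in a part of chromosome 16, while chromosome 12 stays near 0.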

How the data were processed

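QuantSeq 3' mRNA libraries of SNU449 and SNU449-Axl- cells, naïve or resistant to Rego, were examined in 2 tables, for the pair of groups compared here and over all 12 libraries. Per the submitters' processing notes and the methods, the authors trimmed reads with cutadapt (version 4.0), aligned them to GRCh38 and spike-in sequences with STAR (version 2.5.3a), used GENCODE release 40, and compared groups with DESeq2 including the preparation date. The deposited library values are scores: per the methods, the authors variance-stabilized the counts, removed the preparation effect with limma and, as read from the values, took the power of 2 and rounded it. The signal of a gene is the mean normalized count that the authors had deposited for all libraries of a table. The authors' fold changes and p-values in these tables were not used, nor were 6 further tables. No library column was left unused.

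Spike-in rows were left out, and log2 of the values was fitted in R 4.3.3 by lmFit and trended eBayes of limma 3.58.1 (two-sided), with the replicate number as block. The values tie equal numbers, which is read here as a result of the preparation correction. Benjamini-Hochberg adjusted p under 0.05 over all 14241 genes counted as a call. The fit was tested on simulated data. The libraries compared, the 30 gene lists (729 genes, 555 tested) and the rule for named genes were chosen with earlier results of these data known. By this rule the 15 largest rises and falls among non-overlapping called genes, anchor genes of each list with up to 3 called members, and up to 3 called genes of the highest and lowest chromosomal run were named, and other called list members are named where a list is described. A few list members are counted but not reported here by name. Some gene names, 17 in all, occur on more than 1 identifier, and identifiers were matched to GENCODE release 44 for coordinates. Alternatives were no block, leaving out each replicate, log2(value + 1), filters on low values, upper-quartile and spike-in scaling, the 12-library table, and no variance trend.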

Additional observations from a re-analysis of the deposited data

How the results depend on the processing

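The replicate block and the scaling mattered most. Without the replicate block 3542 genes were called, 1973 higher and 1569 lower, and these included all 928 called with it. This inclusion was largely set in advance. After the preparation correction the block takes up almost no spread, so that leaving it out mainly adds degrees of freedom. Spike-in centring gave 2822 calls, 2686 higher and 136 lower, or 95.2% higher against 63.6%. Leaving out the libraries of a replicate number left 1 residual degree of freedom and 0 to 4 calls, 0 to 2 in each direction. All 928 genes kept their sign. For all but SERPINE2 this was fixed in advance, because their libraries do not overlap between the groups. The other settings gave 691 to 1111 calls: a mean normalized count of at least 30 gave 691, no variance trend 865, log2(value + 1) 928, upper-quartile scaling 974 and the fit over 12 libraries 1111, and a value of at least 20 removed no gene. Directions turned for genes that were not called. With spike-in centring TYRO3 was at 0.22, ERBB2 at 0.21 and VIM at 0.12. Over the settings that leave out a replicate, GAS6 ranged from -0.030 (without replicate 3) to 0.31 and VIM from -0.33 to 0.094 (highest without replicate 2). Of 98 named genes, 8 lost their call with spike-in centring, 3 in the 12-library table and 2 without the trend. The values of weak genes are compressed, and without counts per library no interval for their depth can be given. Technical triplicates of single populations do not measure how populations of the same kind vary.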

Other observations

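Mitochondrial tRNA genes were outside the gene lists. Of 34 genes of the mitochondrial genome 5 were called (14.7%), all higher, against 4.14% of all genes called higher, and the median difference was 0.32. All 5 were among the 19 mitochondrial tRNAs tested, and they were chosen here after their values were seen. MT-TM, the tRNA for methionine, had 411, 305 and 275 in control and 705, 950 and 1054 in resistant Axl-deficient libraries, a log2 difference of 1.45 (SE 0.21). MT-TL1 differed by 1.18 (SE 0.22), MT-TF by 1.10 (SE 0.18), MT-TP by 0.91 (SE 0.15) and MT-TI by 0.52 (SE 0.13). These short genes adjoin other mitochondrial transcripts, and how reads shared with them were counted was not tested.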
